A study of Drosophila melanogaster with 2 samples.

Results

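Binding of Hr38 at 7 genes of insulin signalling and growth control was described from chromatin immunoprecipitation sequencing (ChIP-seq) peak lists. The genes were chosen by name, with earlier results of the same lists known: ImpL2, InR, chico, foxo, Thor, Lk6 and larp, 7 of 13968 protein-coding genes on the chromosome arms. All listed regions were taken whose summit, the authors' point of highest signal, lay in the span of such a gene or within 5 kb of it. Since listed scores and positions were known when the genes were chosen, what follows describes them and tests nothing.

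Hr38 is an orphan nuclear receptor, the single NR4A protein of the fly. Chromatin came from whole Drosophila melanogaster white prepupae of mixed sex, of the transgenic strain Hr38-GFP, in which Hr38 carries GFP at its C terminus. The description names an anti-GFP antibody for the precipitation, while the antibody field of the labels reads Hr38. Age is entered as 48 h, counted from a point that is not stated. There was 1 group with 2 biological replicates of that strain and no second condition. A whole animal mixes many cell types, so a listed region does not say in which cells Hr38 was bound. A possible control experiment is listed for both libraries. Its data were not read here, though the authors' lists had a control among their inputs.

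Insulin-like peptides bind the receptor InR, which passes the signal through the adaptor Chico to phosphatidylinositol 3-kinase and the kinase Akt. Akt keeps the transcription factor Foxo out of the nucleus, and when signalling is low Foxo raises genes such as Thor and InR itself. The branch through the kinase TOR controls translation, where Thor, Lk6 and Larp act on or near the complex that binds the cap of mRNAs. In the fly this pathway sets body size in larvae and the use of stores, and white prepupae no longer feed.

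The authors' thresholded list, which came from their irreproducible discovery rate (IDR) analysis of the replicates, held 768 peaks. The pooled list, from both libraries together and including background, held 19279 regions, and the lists of replicate 1 and replicate 2 held 30000 and 29031 regions on the arms. Scores are the authors' signal values on a scale that the sources do not state, rank 1 is the highest score of a list, and depth is unknown. Scores ran from 78.0 to 629 in the thresholded list (median 106) and from 28.2 to 629 in the pooled list (median 34.8). The thresholded peaks were exactly pooled ranks 1 to 768, so whether a peak was in that list followed from its pooled score. Being in it does not show that the peak was reproduced on its own, and 756 of the 768 overlapped a region of each replicate.

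Hr38 peaks past the threshold lay at 5 of the 7 genes, namely ImpL2, InR, foxo, Lk6 and larp, and there were 9 of them. Of all protein-coding genes, 13.4% had such a summit in the same window. Thor and chico had none. Each of the 5 genes with a peak spans over 10 kb, a class in which 21.5% of protein-coding genes had one. Thor and chico are shorter, and of the genes under 10 kb 12.0% had one. Among genes with a span within 2-fold of that of foxo, 0.901% had 3 or more such summits, as foxo did. ImpL2, InR and foxo had 2 or more, as did 1.71% of all protein-coding genes. Among genes of a span within 2-fold of their own, 2.71% had 2 or more for ImpL2 and 5.83% for InR. A summit lay within 1 kb of a protein-coding start site (TSS) of InR, Lk6 and larp, 3 of the 7, against 4.74% of all protein-coding genes. The windows of the 7 genes held 4.50 thresholded summits per 100 kb, and those of all protein-coding genes 0.903. The members were picked with their peaks known, so nothing is read from these shares.

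**Figure D1:**
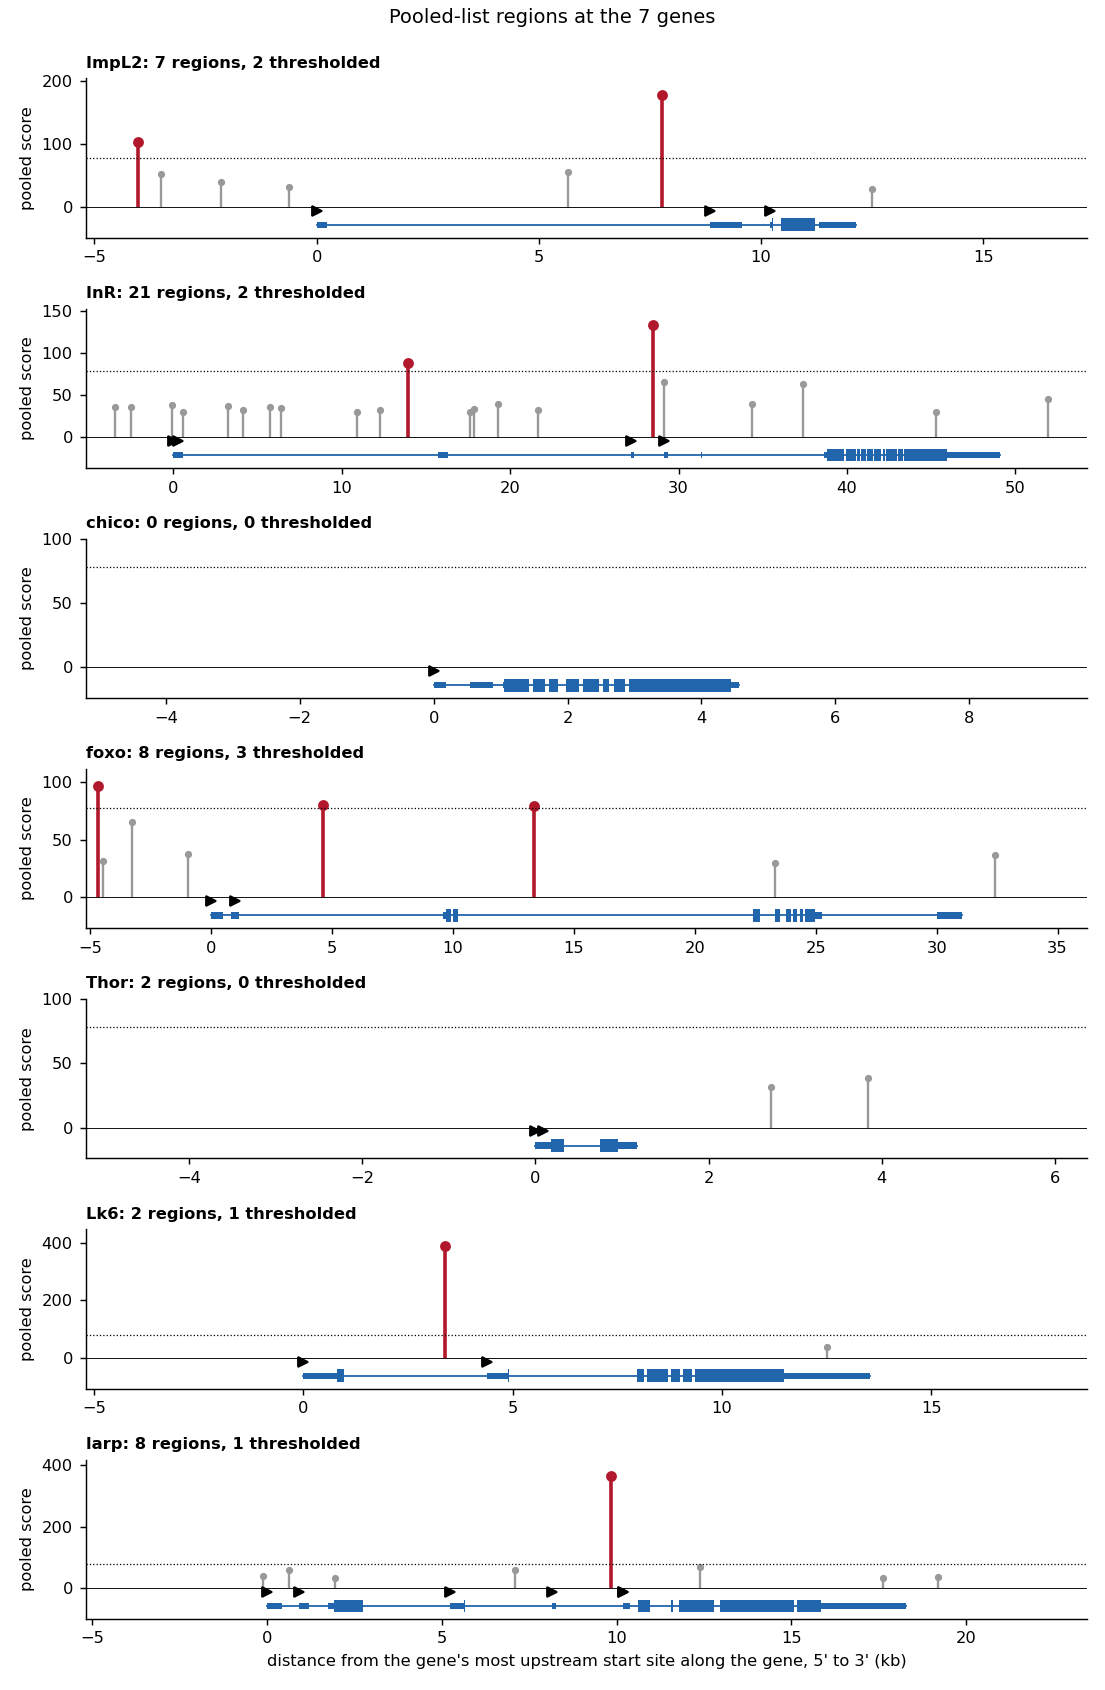
Pooled-list regions at the 7 genes, each drawn 5' to 3' with distance in kb from its most upstream start site on the x axis and the authors' pooled score on the y axis, whose range differs between panels. Red stems are the 9 thresholded peaks, grey stems the other pooled regions, the dotted line is the lowest thresholded score (78.0), triangles are start sites, and thick and thin blue boxes are coding and other exons. The strongest peaks of ImpL2, InR, Lk6 and larp stand in introns shortly before a downstream start site.

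The sequence under a member's highest peak is shown because it places the binding signal, together with the second peak of InR, which differed from the others in base composition. Each run holds the summit and 100 bases to either side of it, on the plus strand of the release 6 assembly (dm6), read 5' to 3'. Capitals mark the letters of the motifs found, GAGAG for GAGA in the windows of ImpL2, InR and Lk6 and GTAAACA for FOXO in that of Lk6, and the foxo and larp windows held none of the motifs searched. The windows are chr3L:4228281-4228481 for ImpL2, chr3R:21590746-21590946 and chr3R:21605308-21605508 for InR, chr3R:14052161-14052361 for foxo, chr3R:11760971-11761171 for Lk6 and chr3R:28326487-28326687 for larp.
ImpL2, intron 1: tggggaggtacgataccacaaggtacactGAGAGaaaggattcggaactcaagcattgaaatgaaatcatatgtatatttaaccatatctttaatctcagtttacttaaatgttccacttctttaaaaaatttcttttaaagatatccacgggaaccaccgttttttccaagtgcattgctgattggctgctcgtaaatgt
InR, between start sites: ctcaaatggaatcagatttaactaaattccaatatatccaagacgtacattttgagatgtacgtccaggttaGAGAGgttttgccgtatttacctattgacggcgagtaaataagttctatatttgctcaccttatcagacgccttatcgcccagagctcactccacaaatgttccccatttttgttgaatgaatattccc
InR, intron 1: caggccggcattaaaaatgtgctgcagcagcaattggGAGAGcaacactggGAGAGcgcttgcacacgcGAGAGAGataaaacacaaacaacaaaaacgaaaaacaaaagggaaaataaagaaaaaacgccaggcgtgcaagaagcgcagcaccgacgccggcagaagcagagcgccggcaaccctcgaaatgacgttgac
foxo, upstream: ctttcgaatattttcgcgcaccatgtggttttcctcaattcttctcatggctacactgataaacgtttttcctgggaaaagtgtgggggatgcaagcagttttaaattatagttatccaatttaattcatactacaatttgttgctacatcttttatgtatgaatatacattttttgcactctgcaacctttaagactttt
Lk6, intron 1: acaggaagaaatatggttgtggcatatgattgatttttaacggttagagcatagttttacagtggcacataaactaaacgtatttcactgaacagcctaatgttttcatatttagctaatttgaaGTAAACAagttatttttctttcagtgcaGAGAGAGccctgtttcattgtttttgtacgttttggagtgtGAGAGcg
larp, introns: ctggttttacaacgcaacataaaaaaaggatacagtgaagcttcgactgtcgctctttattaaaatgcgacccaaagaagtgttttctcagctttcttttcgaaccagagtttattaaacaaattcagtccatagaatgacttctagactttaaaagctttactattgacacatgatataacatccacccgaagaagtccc

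ImpL2 encodes a secreted immunoglobulin-domain protein that binds insulin-like peptides and dampens signalling. Its gene (FBgn0001257, chr3L:4224006-4236147, minus strand) had 2 thresholded peaks. The stronger one, at chr3L:4228311-4228436, scored 177.5 in the pooled data (rank 104), with 98.9 in replicate 1 (rank 99) and 81.5 in replicate 2 (rank 110). The libraries placed it at nearly the same rank. Its summit was in intron 1 of the longest transcript, ImpL2-RA, 7766 bp from that transcript's start and 1079 bp upstream of the start shared by ImpL2-RB and ImpL2-RD. CG46460, a further protein-coding gene of the annotation, begins at that same position, so the peak cannot be assigned to ImpL2 alone.

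The other ImpL2 peak, at chr3L:4239986-4240365, scored 103 (rank 411). Its summit lay 4029 bp upstream of ImpL2 but 3 bp from a start site of Sqor, which encodes a sulfide:quinone oxidoreductase, and it also fell in the antisense RNA gene CR45738. This summit is therefore counted at ImpL2 by the 5 kb window alone. Replicate 1 split this place into 2 overlapping regions, with scores of 59.0 and 58.2 (ranks 359 and 373), and replicate 2 gave 1 region with a score of 37.4 (rank 877). Below the threshold the pooled list had 5 more regions at ImpL2, and the highest of them scored 56.1 in intron 1 (rank 1697).

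InR encodes the only classical insulin receptor of the fly. It is the longest of the 7 genes (FBgn0283499, chr3R:21570248-21619321, minus strand) and had 2 thresholded peaks, both in introns. The stronger, at chr3R:21590656-21591035, scored 132.7 (rank 219), with 74.9 in replicate 1 (rank 197) and 60.2 in replicate 2 (rank 248). Its summit was 655 bp upstream of the start of InR-RD and inside intron 1 of InR-RC and intron 2 of InR-RA and InR-RB. It stood between the start sites of InR-RC and InR-RD, 28475 bp from the most upstream one. Both libraries ranked it alike, and their summits were 1 and 9 bp from the pooled one.

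The second InR peak, at chr3R:21605218-21605597, scored 87.5 (rank 585). It lay in intron 1 of InR-RA and InR-RB, 13287 bp from the nearest start site of any protein-coding gene. Replicate 1 gave it a score of 36.7 (rank 1324) and replicate 2 a score of 49.7 (rank 437), so only replicate 2 had it among its 768 highest regions. The sequence within 100 bp of its summit had a GC content of 51.2%, against 33.8 to 42.8% at the other 8 peaks and a median of 37.8% over all thresholded summits (quartiles 33.8 and 41.8%). A further pooled region stood 3 bp from the start site of InR-RD with a score of 65.8 (rank 1118), below the threshold, and was listed in both replicates (ranks 2317 and 1358).

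chico encodes the insulin receptor substrate that links InR to phosphatidylinositol 3-kinase. Its gene (FBgn0024248, chr2L:10242512-10247078, minus strand) had no region in the thresholded list, in the pooled list or in replicate 1. The pooled list had a summit at 6 of the 7 genes, as it did at 88.1% of all protein-coding genes, and the list of replicate 1 likewise at 6 of the 7, as at 92.2% of all. Only replicate 2 listed regions near chico, 8 in number, with scores of 13.95 to 25.1. The replicate 2 list had a summit at all 7 genes and at 93.6% of all protein-coding genes. The highest of the 8 (rank 3374) fell in the neighbouring gene me31B, and 1 of the 8 was inside chico, over coding sequence, with a score of 14.3 (rank 21100). Absence from a list shows that no region was listed there at an unknown depth, not that Hr38 was absent.

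foxo encodes the forkhead transcription factor at the end of the pathway. It had 3 thresholded peaks, the most of the 7 genes, but its strongest scored lower than the strongest of ImpL2, InR, Lk6 or larp (FBgn0038197, chr3R:14056945-14087978, plus strand). The highest, at chr3R:14052071-14052450, scored 97.1 (rank 469), with 41.0 in replicate 1 (rank 883) and 56.5 in replicate 2 (rank 292). It lay 4684 bp upstream of the foxo start, and no other protein-coding start site was nearer. The second, at chr3R:14061385-14061764, scored 80.6 (rank 706) and lay 3656 bp past the downstream start site, in intron 2 of most transcripts. Replicate 1 gave it a score of 24.9 at rank 7191 and replicate 2 a score of 43.1 at rank 605. The libraries disagreed on this peak more than on any other of the 9, by a ratio of ranks of 11.9. Over all thresholded peaks found in both libraries the median ratio was 1.89, and 32 of 756 had a ratio above 10.

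The third foxo peak, at chr3R:14070084-14070463, scored 79.1 (rank 740) and lay 12355 bp from a start site, in intron 4 of most transcripts. Here replicate 1 was the higher in rank, with a score of 45.8 (rank 649), while replicate 2 gave 29.1 (rank 2002). None of the 3 foxo peaks was among the 768 highest regions of both libraries. Both intronic peaks stood close to the lowest thresholded score of 78.0. Just outside the threshold were a pooled region at larp with a score of 68.0 (rank 1037), one at InR (65.8) and one 3267 bp upstream of foxo (65.6, rank 1129).

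Thor encodes the 4E-binding protein, which holds the cap-binding factor eIF4E inactive and is a well-known target of Foxo. The gene is the shortest of the 7 (FBgn0261560, chr2L:3478434-3479612, plus strand). It had no thresholded peak, and no list had a summit inside its span. The pooled list held 2 regions in its downstream flank, with scores of 38.7 (rank 6439) and 31.3 (rank 13910), and both summits fell in the neighbouring gene CG15414. The higher of them was listed in replicate 2 with a score of 35.5 (rank 1032) and was matched by no region of replicate 1. The region nearest to a Thor start site was listed only in replicate 2, 643 bp upstream, with a score of 14.1.

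Lk6 encodes the fly relative of the mammalian Mnk kinases, which phosphorylates eIF4E. It had the strongest peak of the 7 genes (FBgn0017581, chr3R:11750931-11764457, minus strand). The peak, at chr3R:11760933-11761145, scored 388.5 (rank 11), with 188.7 in replicate 1 (rank 15) and 182.4 in replicate 2 (rank 9). The scores of the libraries were close, and this was the highest region of the gene in both. Its summit was in intron 1 of Lk6-RA, 3386 bp from the start of that transcript, and 992 bp upstream of the start of Lk6-RB. The pooled list had only 1 other region at Lk6, with a score of 38.8 (rank 6432) in exon 6.

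larp encodes an RNA-binding La-related protein whose mammalian relative LARP1 binds mRNAs with a terminal oligopyrimidine tract under the control of TOR. The gene (FBgn0261618, chr3R:28318162-28336440, minus strand) has 7 annotated transcripts from 6 start sites. Its peak, at chr3R:28326481-28326686, scored 364.1 (rank 15), with 210.4 in replicate 1 (rank 12) and 150.5 in replicate 2 (rank 24). Its summit was 323 bp upstream of the start of larp-RA, the second most downstream of the start sites, and lay in introns of the 5 transcripts that begin farther upstream. The 7 other pooled regions at larp scored 33.5 to 68.0. Among them were regions 263 and 1058 bp upstream of other larp start sites, scoring 57.8 and 57.6, which were listed in both replicates.

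**Figure D2:**
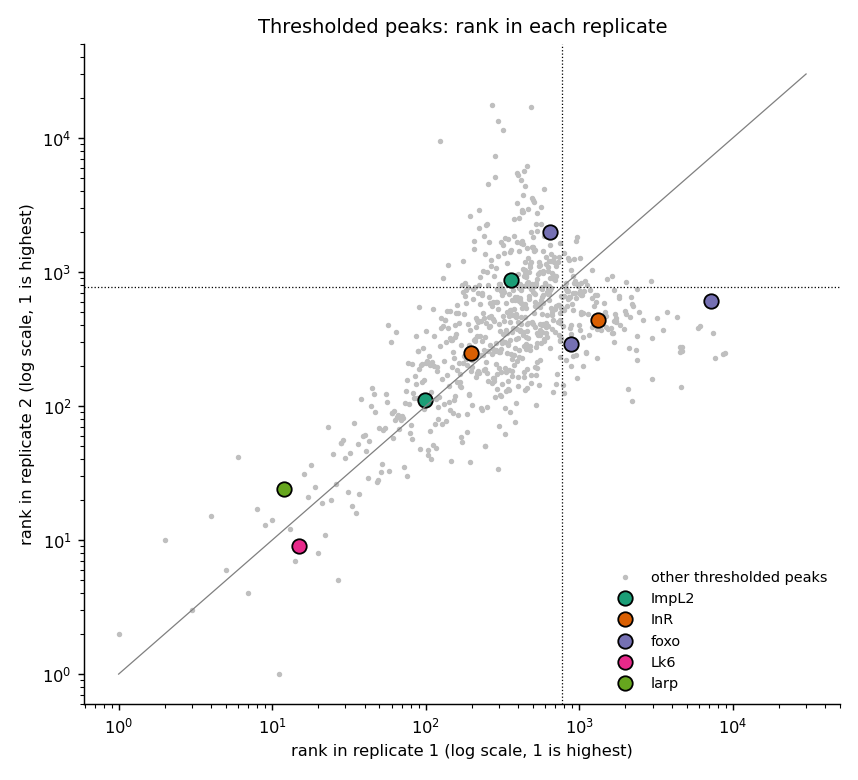
Rank of each thresholded peak in replicate 1 (x axis) and replicate 2 (y axis), both on log scales with rank 1 the highest. Coloured points are the 9 peaks at ImpL2, InR, foxo, Lk6 and larp, grey points the other peaks found in both libraries, and dotted lines mark rank 768. Lk6 (ranks 15 and 9), larp (12 and 24), the stronger ImpL2 peak (99 and 110) and the stronger InR peak (197 and 248) lie near the diagonal, while a foxo peak lies at 7191 and 605.

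All 9 peaks overlapped a region of each replicate, as did 756 of all 768 thresholded peaks, so this count is near the background. The 4 peaks that were among the 768 highest of both libraries were those of Lk6 and larp and the stronger ones of ImpL2 and InR, and 461 of the 768 thresholded peaks (60.0%) met the same condition. The scores were combined from these same libraries, so this is no independent check. The 3 strongest, at Lk6, larp and ImpL2, were also narrower than the usual 380 bp, at 213, 206 and 126 bp. Of all thresholded peaks 74 were narrower (9.64%), and all 74 were in the upper 50% of the list by score.

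Below the threshold the pooled list held 39 more regions at the 7 genes, with scores of 28.8 to 68.0 (median 36.2, against 34.4 over all pooled regions below the threshold). Of these 39, 20 overlapped a region in both replicates, 6 only in replicate 1, 12 only in replicate 2 and 1 in neither. A shared base pair was enough, so some matches were the replicate region of a thresholded peak, as at foxo (replicate 1 rank 883). The same counts over all pooled regions below the threshold are not given, so nothing is read from these. InR, which has the longest window, held 19 of the 39. The list of replicate 2 had more summits than that of replicate 1 at each of the 7 genes, 95 against 47 in all. Over all protein-coding genes, 48.9% had more in replicate 2 and 36.8% more in replicate 1. The median scores of the members' regions were 22.9 in replicate 1 (20.4 over its whole list) and 17.9 in replicate 2 (16.4). These are lists that include background, and whether depth differed between the libraries was not tested.

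**Figure D3:**
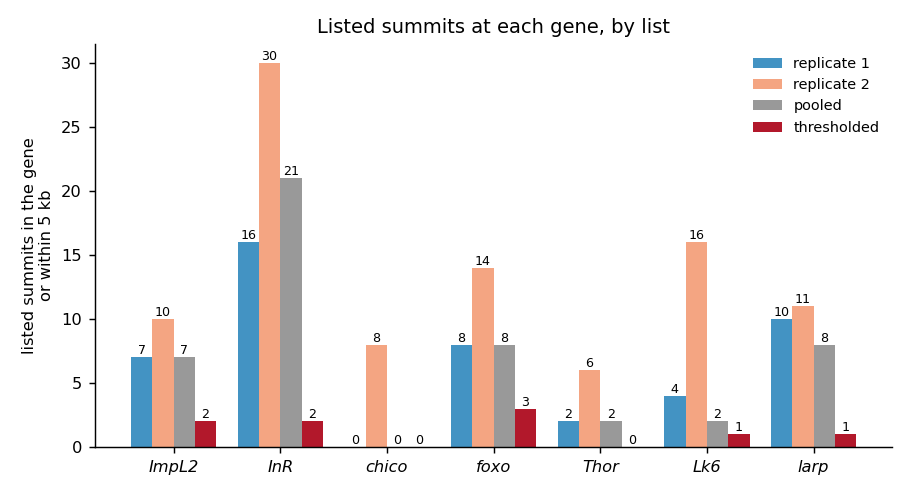
Number of regions (y axis) with a summit in each of the 7 genes or within 5 kb of it (x axis), as bars for the thresholded, pooled, replicate 1 and replicate 2 lists. Every gene has its tallest bar for replicate 2, from 6 regions at Thor to 30 at InR, and chico has regions in that list only.

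Of the 9 summits, 7 lay inside a member gene, and all 7 were in introns. Of all 768 thresholded summits, 494 (64.3%) lay inside a protein-coding gene, and 83.2% of these were in an intron and no exon of it. Inside genes spanning 10 kb or more, as all 5 with peaks do, the share was 94.4%, so the members' count is near the background. None was over coding sequence or an untranslated region of the member. Of the 9 summits, 4 (44.4%) were in an intron and at most 2 kb upstream of a later start site of the same gene, namely those with the highest scores at Lk6, larp, ImpL2 and InR. The same arrangement was found at 165 of 768 thresholded summits (21.5%) and at 971 of the 18511 pooled summits below the threshold (5.25%). These shares also count summits outside genes and in genes under 10 kb. The feature needs a gene with 2 or more start sites, as all 5 genes with peaks have. A share over long genes of that kind is not given, so nothing is read from the gap. This feature and its limit of 2 kb were picked after the positions were seen, so the counts are a description and were not tested.

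The windows of 100 bp to either side of each summit were read for the letters of known motifs, on both strands. The NR4A response element NBRE (AAAGGTCA) was at none of the 9 member summits, against 0.260% of all thresholded and 0.659% of all pooled summits. Its core AGGTCA, which the NBRE contains, was likewise at none, against 2.60% and 5.11%. The FOXO letters TGTTTAC were at 1 of 9, in the Lk6 peak 28 bp from the summit, against 6.90% and 3.61%. GAGAG, the core of sites of the GAGA factor, was at 4 of 9 (Lk6, the stronger peak of ImpL2 and both peaks of InR), against 28.6% and 25.2%, and the second InR window held it 4 times with overlaps. The promoter element DRE (TATCGATA, at 1.82% and 0.752% of thresholded and pooled summits), the E-box CACGTG (2.08% and 2.82%), AP-1 (TGANTCA, 5.21% and 3.75%) and CRE (TGACGTCA, 0.260% and 0.249%) were at none. A match is a run of letters, and a missing match says only that these letters are not in the window.

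Likeness to other peaks was measured as the distance between log10 ranks over the 2 libraries. Closest to the Lk6 peak was one 110 bp from a start site of CG8320, at ranks 14 and 7 in replicates 1 and 2. For larp it was a peak 3175 bp from tara (ranks 17 and 21), for ImpL2 one 89 bp from Adck1 (88 and 115), for InR one 447 bp from Sin3A (202 and 231), and for foxo one 53 bp from CG13901 (866 and 289). These are likenesses of rank only.

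Other genes of the pathway were read from a list of 54 symbols, of which 53 matched the annotation (Lobe did not). Of the 53 genes, 13 (24.5%) had a thresholded summit in the span or within 5 kb, against 13.4% of all protein-coding genes, and 45 (84.9%) had a pooled one, against 88.1% of all. By length, 7 of the 14 listed genes over 10 kb and 6 of the 39 shorter ones had a thresholded summit, against 21.5% and 12.0% of all protein-coding genes of these lengths. Of the 14 summits at these genes, 7 were nearest to a start site of the listed gene itself.

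The groups of the list are small, and their counts stand beside the same 13.4% of all protein-coding genes with a thresholded summit, so nothing particular to a group is read from them. Of the 8 insulin-like peptide genes, Ilp1 to Ilp8, which encode the ligands, 0 had a thresholded peak, where 13.4% of all genes had one. Of these 8, 4 had a pooled region, against 88.1% of all genes, and the highest was at Ilp7 with a score of 61.3. The 4 without one, Ilp1 to Ilp4, are close together on 3L with overlapping windows, so they are not 4 separate places. Replicate 1 listed 4 or 5 regions at each of them, and replicate 2 none. In the branch of PI3K and Akt, 4 of 15 genes had a thresholded peak, against 13.4% of all genes and 21.5% of those of 10 kb or more. The one at Pi3K21B, which encodes the regulatory subunit of the PI3K enzyme, scored 138.5 and lay 8 bp from its start site, at ranks 111 and 534 in replicates 1 and 2. The peak of trbl, an inhibitor of Akt, scored 114.4 in intron 1. The peak near Akt (124.0) lay inside Mhcl and nearer to that gene's start, and the peak in wdb, a regulatory subunit of the phosphatase PP2A, scored 115.5 but lay 11618 bp from a wdb start site and nearer to one of CG5646.

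Among 17 genes of the TOR complexes and their effectors, 3 had a thresholded peak, a share near the 13.4% of all genes. REPTOR, a transcription factor that TOR complex 1 holds back, had one 179 bp from a start site with a score of 117.0 and ranks of 326 and 302 in replicates 1 and 2. The peak in intron 2 of S6k, the ribosomal protein S6 kinase, scored 109.5, and that in intron 2 of Myc, a driver of cell growth, scored 87.7 at ranks 1722 and 432. Of the 9 genes of amino acid sensing, 4 had a peak, against 13.4% of all genes. For 3 of these, the peak was nearer to another gene, namely Chro for slif (431.0), upSET for Nprl3 (315.1) and papi for mio (167.7). Sesn, which encodes sestrin, had 2, with scores of 185.1 and 78.2, and the stronger lay 252 bp from the starts of both Sesn and CG46429. The weaker was in intron 2 and nearer to CG18128. Of 4 genes around the AMP-activated kinase, 2 had a peak, against the same 13.4%. SNF4Agamma, the gamma subunit, had a peak 267 bp from a start site (81.6), and alc, the beta subunit, had one (170.1) that was nearer to CG44286.

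**Figure D4:**
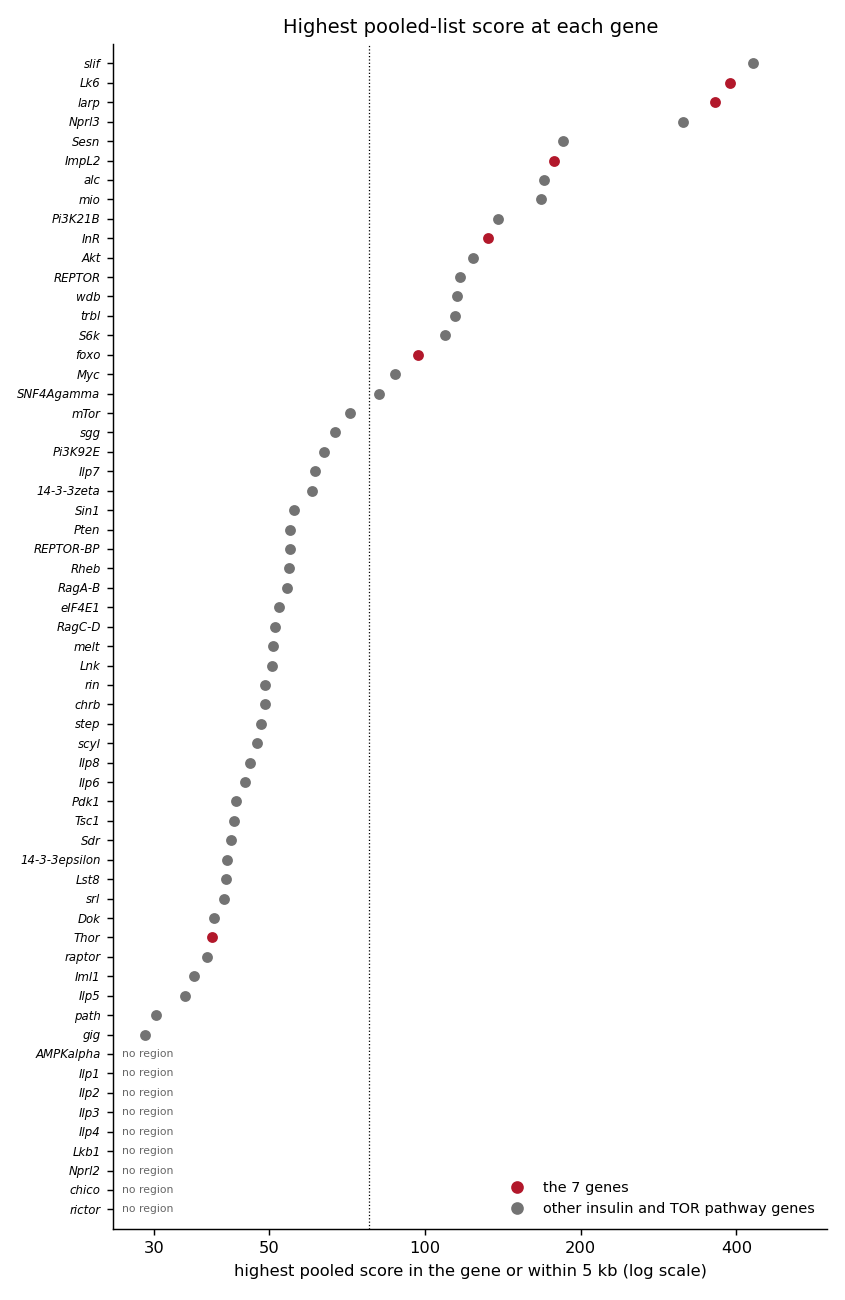
Highest pooled score (x axis, log scale) in each gene or within 5 kb of it for the 7 genes (red) and 53 other genes of the insulin and TOR pathway (grey), with the lowest thresholded score of 78.0 as a dotted line. Lk6 (388.5) and larp (364.1) stand near the top with slif (431.0), ImpL2 (177.5) and InR (132.7) lie in between, foxo (97.1) near the line, Thor (38.7) below it, and chico has no region.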

How the data were processed

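Peak lists of 2 biological replicates of 1 group were used. The authors deposited them on dm6 in narrowPeak layout. Files listing each library's data name their inputs: alignments of 1 replicate plus a control for each replicate list, alignments of both plus a control for the pooled list, and those lists for the IDR-thresholded list. Which aligner, caller and IDR cut-off made them was not stated. The deposited score is the narrowPeak signal value on an unstated scale, and the deposited -log10 q value and summit offset follow that layout. No read counts were used, so depth and precision are unknown and no interval is given. The dm3 lists were not used, having no gene models here.

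Gene models are those of Ensembl release 115, and sequence is from RefSeq's release 6 assembly. Ranks are among regions on the arms. Regions matched where they shared a base pair, taking the highest score. The genes, lists and motifs were chosen with earlier results of these data known, and the pathway list was grouped by role after the peaks were seen. Named are the 7 genes, pathway genes with a thresholded summit, genes at or nearest to a member's thresholded summit, and the gene at the closest peak in log10 rank. Neighbours of pathway genes and of regions below the threshold, and Ilp7, were added after their values were seen. Interval and motif searches were tested on simulated data. Alternatives covered the window, the summit rule, the threshold, each replicate alone, matching and the motif window. Python 3.11.15, numpy 2.4.6, pandas 2.3.3 and matplotlib 3.10.9 were used.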

Additional observations from a re-analysis of the deposited data

How the results depend on the processing

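A peak at 5 of the 7 genes was kept, by the same 5 genes, in 6 of the 8 alternative settings. These were the gene span alone, flanks of 2 or 10 kb, and any base of a region in place of its summit. The others were the 768 highest regions of replicate 1 or of replicate 2 alone. The genes were picked with their peaks known and the pooled scores came from the same libraries, so keeping them was largely fixed in advance. For these settings the share of all protein-coding genes is not given, so nothing is read from the counts. With the upper 50% of the thresholded peaks there were 4 genes (foxo dropped out) and 4 summits in place of 9. That cut removes 50% of all thresholded peaks by design. The share of all protein-coding genes at this cut is not given either, so nothing is read from the drop. Within 1 kb of a coding start site of the gene itself there were 3 genes (Lk6, larp and InR) and 3 summits. Of all protein-coding genes, 4.74% had such a summit. That setting left 5 pathway genes in place of 13, and the gene span alone held 7 pathway genes. Replicate 1 alone and replicate 2 alone each gave 5 genes and 7 summits, with 12 and 14 pathway genes. The summits were not all the same ones. At foxo, replicate 1 kept only the third peak (rank 649), and replicate 2 only the first and second (ranks 292 and 605). Replicate 1 also counted the place at Sqor as 2 summits (ranks 359 and 373). Any motif was at 4 of 9 member peaks, at 3 within 50 bp and at 8 within 250 bp. The share of all summits with any of the motifs is not given, so nothing is read from this count. GAGAG alone was at 2 of 9 within 50 bp (14.1% of thresholded summits), at 4 within 100 bp (28.6%) and at 8 within 250 bp (61.6%). Within 250 bp the FOXO letters were at 2 of 9 (Lk6 and the upstream foxo peak), against 15.2%, and AP-1 at 1 (InR), against 10.8%. A match in both replicates held for 8 of 9 peaks at a reciprocal overlap of 50%. No paired analysis was possible because there is 1 group and no test. The lists carry no depth, so a gene with no region is one at which none was listed.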

Other observations

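Several regions below the threshold in the flanks of the 7 genes lay in or at neighbouring genes. Upstream of InR, 2 pooled regions with scores of 36.2 and 35.6 fell in E2f1, which encodes a cell cycle transcription factor, and both were listed in each replicate. Downstream of foxo, a pooled region with a score of 37.1 lay 156 bp from a start site of Npc2b and was listed in replicate 1 only. Of the 8 regions that replicate 2 listed around chico, 5 in the upstream flank were nearest to starts of bsk or Ror and at most 758 bp from them. These regions were picked out after their positions were seen and were not tested.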
